A study of Mus musculus with 3 samples.

Results

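Myoepithelial-like nuclei are the nuclei of mouse lacrimal gland that carry RNA of smooth muscle and basal epithelial genes together. They were chosen by a marker rule over 3 single-nucleus libraries, which gave 885 of the 29220 nuclei that passed the quality limits. Of these, 305 lay in the tamsulosin library, 381 in the scopolamine library and 199 in the control library. A nucleus was kept with at least 500 UMIs (counted RNA molecules), at least 300 genes and at most 5% mitochondrial UMIs. Its UMIs of Trp63, Myh11, Acta2, Oxtr, Krt5, Krt14, Cnn1, Ntrk3 and Fhod3 had to sum to at least 3, come from at least 2 of these genes and make up at least 0.1% of all its UMIs. At least 1 UMI had to be of Trp63, Oxtr, Krt5 or Krt14. The duct genes Pdzrn4 and Sult5a1 together had to stay below 0.1%, and 7 genes of other cell types (Lama2, Ptprb, Emcn, Rgs5, Notch3, Skap1 and F13a1) at or below 0.1%. The members were thus chosen by measured values, so the levels of these genes are a description and are not tested.

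The series profiled droplet-captured nuclei with the 10x Genomics 3' chemistry in 3 groups with 1 library each. The tamsulosin library came from glands of mice in which dry eye had been induced with scopolamine and dry stress and which received tamsulosin, a blocker of alpha-1 adrenergic receptors. The scopolamine library came from glands of mice with the same dry eye model, with no tamsulosin named; scopolamine blocks muscarinic receptors. The control library came from glands of healthy mice. Strain, sex, age, doses, times and the number of animals behind each library are not given in the sources used here, so every group has n = 1. No p-value can be had between libraries, and every interval below is a 95% interval that covers counting error only. The extract protocol in the labels also speaks of sorting red fluorescent nuclei in a text shared with a plate method, and whether these libraries were sorted could not be settled.

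Myoepithelial cells are flat epithelial cells that lie between the secretory acini and the basement membrane of exocrine glands. They contract with the actin and myosin isoforms of smooth muscle, yet keep basal keratins and the transcription factor p63 of stratified epithelia. In the lacrimal gland they are known to squeeze acini in response to acetylcholine and oxytocin, and they help to lay down the basement membrane.

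The members carried most of the genes that mark this cell type, but almost no Oxtr. Trp63 (chr16:25683763-25892102 in GRCm38, GENCODE M21 annotation), the gene of p63, stood at 794 CPM in tamsulosin, 667 CPM in scopolamine and 609 CPM in control nuclei, on the CPM scale, which sets the member UMIs of every library to the same sum. In all other nuclei it stood at 7.92 CPM in tamsulosin, 17.9 CPM in scopolamine and 11.6 CPM in control nuclei. The share of members with a Trp63 UMI was 93.8% in tamsulosin, 95.01% in scopolamine and 95.5% in control nuclei. In macrophage-type nuclei, which should lack it, the share was 2.38% in tamsulosin, 3.07% in scopolamine and 4.68% in control nuclei. Myh11, the smooth muscle myosin heavy chain (chr16:14194535-14291372), stood at 751 CPM in tamsulosin, 935 CPM in scopolamine and 1083 CPM in control nuclei, against 15.7 CPM in tamsulosin, 49.5 CPM in scopolamine and 28.5 CPM in control nuclei outside the members. Acta2, smooth muscle actin, had 214 CPM in tamsulosin, 238 CPM in scopolamine and 356 CPM in control nuclei.

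The formin gene Fhod3 had 988 CPM in tamsulosin, 1142 CPM in scopolamine and 1617 CPM in control nuclei. Ntrk3, the receptor of neurotrophin-3, had 2142 CPM in tamsulosin, 2105 CPM in scopolamine and 2437 CPM in control nuclei. An Ntrk3 UMI was held by 98.0% of tamsulosin, 97.1% of scopolamine and 99.0% of control members. The basal keratins were sparse. Krt5 stood at 29.1 CPM in tamsulosin, 31.6 CPM in scopolamine and 26.8 CPM in control nuclei, and Krt14 at 32.4 CPM in tamsulosin, 31.1 CPM in scopolamine and 21.5 CPM in control nuclei. Cnn1, the actin-binding calponin, had 31.7 CPM in tamsulosin, 35.6 CPM in scopolamine and 25.05 CPM in control nuclei. The oxytocin receptor gene Oxtr gave 1 UMI in 1 nucleus in each library, so the members cannot be described by it at this depth, although it is among the genes of the rule.

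**Figure D1:**
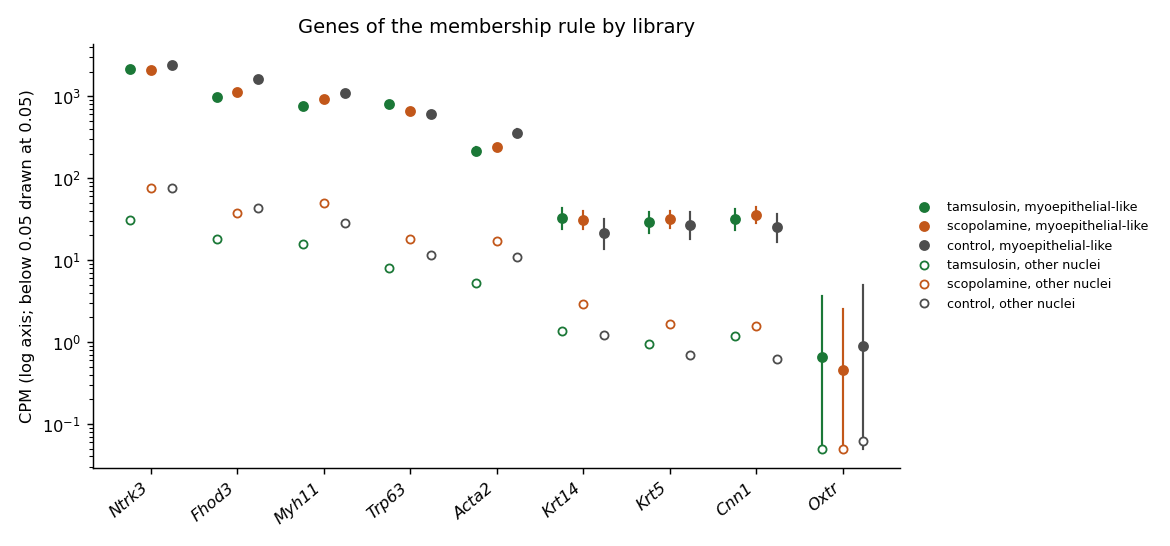
CPM on a log axis of the 9 genes of the membership rule, for the members (filled points, bars are 95% Poisson intervals) and all other nuclei (open points) in the tamsulosin, scopolamine and control libraries. Ntrk3 stands above 2000 CPM in all 3 libraries, while Oxtr rests on 1 UMI per library.

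Most members lay well inside the limits. The median member had 23 UMIs of the rule genes in tamsulosin, 25 in scopolamine and 27 in control nuclei, and these made up 0.555%, 0.650% and 0.775% of its UMIs in the libraries in that order. Exactly 3 such UMIs were held by 4 tamsulosin, 12 scopolamine and 6 control members, and 5, 35 and 22 nuclei of these libraries stayed outside with 2 UMIs while meeting the other limits. Members below 0.15% numbered 19 in tamsulosin, 19 in scopolamine and 7 in control nuclei. Just outside, at 0.05 to 0.1%, lay 17 tamsulosin, 21 scopolamine and 16 control nuclei.

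The depth of the members was alike across libraries, and that of the other nuclei was not. The median member had 3562 UMIs in the tamsulosin, 3304 in the scopolamine and 3595 in the control library. The median other nucleus had 3351 UMIs in the tamsulosin, 1668 in the scopolamine and 2283 in the control library. Thinned to 1000 UMIs, the median member had 507 genes in tamsulosin, 602 in scopolamine and 700 in control nuclei. The mitochondrial share of member UMIs was 1.07% in tamsulosin, 0.578% in scopolamine and 1.13% in control nuclei. The libraries shared 22 to 35 barcodes in pairs, and no barcode was a member in both libraries of a pair.

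RNA of secreted proteins made up much of the members' UMIs, and more so in the treated libraries. The 10 secretory RNAs of the list, among them Mucl2, Obp1a and several secretoglobins, took 31.5% of member UMIs in tamsulosin, 21.8% in scopolamine and 7.13% in control nuclei. The same genes took 30.8% in tamsulosin, 25.3% in scopolamine and 5.73% in control nuclei outside the members. In macrophage-type nuclei, which should not make these proteins, they took 26.7% in tamsulosin, 15.9% in scopolamine and 5.29% in control nuclei. The members were above the macrophage type in each library, and background RNA and expression by the members could not be told apart. A high share lowers the CPM of every other gene in the treated libraries, so folds between libraries are given relative to the median gene.

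Endothelial, macrophage, T and NK, B and plasma and adipocyte markers were lower in the members than outside them in all 3 libraries. In control nuclei the gap was small for endothelial (72.5 against 73.6 CPM) and adipocyte markers (25.9 against 26.7 CPM). Fibroblast and Schwann cell markers were higher than outside in all 3 libraries. Mural, duct and acinar markers differed in direction between libraries. The 10 mural cell markers summed to 28.5 CPM in tamsulosin, 30.7 CPM in scopolamine and 14.3 CPM in control nuclei. Outside the members they summed to 43.5 CPM in tamsulosin, 27.1 CPM in scopolamine and 19.3 CPM in control nuclei, so the members were higher in scopolamine. Nuclei chosen by these mural markers numbered only 3 in tamsulosin, 12 in scopolamine and 4 in control. Among the members Rgs5, Kcnj8, Higd1b and Vtn were at 0 in all 3 libraries. Rgs5 and Notch3 were limited by the rule. The 10 endothelial markers summed to 102 CPM in tamsulosin, 87.0 CPM in scopolamine and 72.5 CPM in control nuclei, with Cldn5 at 0 throughout. The 10 T and NK cell markers summed to 14.2 CPM in tamsulosin, 24.8 CPM in scopolamine and 11.6 CPM in control nuclei, with Nkg7 and Cd2 at 0 throughout. The 10 macrophage markers, none at 0, summed to 76.4 CPM in tamsulosin, 126 CPM in scopolamine and 126 CPM in control nuclei, below the 123 CPM in tamsulosin, 180.1 CPM in scopolamine and 201 CPM in control nuclei outside the members. The 10 fibroblast markers summed to 356 CPM in tamsulosin, 388 CPM in scopolamine and 301 CPM in control nuclei, against 201 CPM in tamsulosin, 248 CPM in scopolamine and 151 CPM in control nuclei outside the members, of which Fbn1, a microfibril protein, and Dcn, the proteoglycan decorin, gave the greater part; Col1a1 had at most 4 UMIs in a library. The 8 Schwann cell markers summed to 108 CPM in tamsulosin, 121 CPM in scopolamine and 100.2 CPM in control nuclei, against 76.1 CPM in tamsulosin, 76.7 CPM in scopolamine and 91.9 CPM in control nuclei outside the members, led by Mbp and Sox10. The 8 B and plasma cell markers summed to 115 CPM in tamsulosin, 117 CPM in scopolamine and 87.7 CPM in control nuclei, and the 6 adipocyte markers to 19.4 CPM in tamsulosin, 28.9 CPM in scopolamine and 25.9 CPM in control nuclei, with Adipoq and Plin1 at 0 throughout. The 10 duct markers summed to 1723 CPM in tamsulosin, 664 CPM in scopolamine and 555 CPM in control nuclei, against 4024 CPM in tamsulosin, 619 CPM in scopolamine and 321 CPM in control nuclei outside the members, of which Ltf, the gene of the secreted protein lactoferrin, gave most in tamsulosin and scopolamine nuclei; Krt19 had 1 UMI in each library. The 10 acinar markers, some of them secretory RNAs, summed to 67579 CPM in tamsulosin, 48003 CPM in scopolamine and 20496 CPM in control nuclei, against 63804 CPM in tamsulosin, 52680 CPM in scopolamine and 16047 CPM in control nuclei outside the members. The part of these other RNAs in the results below was not tested.

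The members were not uniform. An Acta2 or Myh11 UMI was found in 87.5% of tamsulosin, 90.03% of scopolamine and 94.0% of control members. A Krt5 or Krt14 UMI was found in only 23.3% of tamsulosin, 29.4% of scopolamine and 24.1% of control members. The few nuclei above 15000 UMIs stood apart. They were 13 tamsulosin, 32 scopolamine and 13 control members, and they held 20.4%, 34.7% and 28.0% of all member UMIs in those libraries. Their Trp63 level was 172 CPM in tamsulosin, 249.7 CPM in scopolamine and 144 CPM in control nuclei. In the members of at most 15000 UMIs it was 953 CPM in tamsulosin, 889 CPM in scopolamine and 789.7 CPM in control nuclei. Kcnma1, a potassium channel gene, had its higher level in the deep nuclei and was also higher outside the members. It had 1909 CPM in tamsulosin, 2872 CPM in scopolamine and 3008 CPM in control nuclei above 15000 UMIs. Among the shallower members it had 899 CPM in tamsulosin, 1497 CPM in scopolamine and 1826 CPM in control nuclei. Among the nuclei with the highest doublet scores were 9 of the 13 tamsulosin, 13 of the 32 scopolamine and 5 of the 13 control members above 15000 UMIs. Such scores were held by 22.6% of all tamsulosin, 19.2% of all scopolamine and 12.6% of all control members. Over all nuclei they numbered 1156 of 12020 in tamsulosin, 801 of 10006 in scopolamine and 414 of 7194 in control. Members were thus over-represented among them in each library, and the part of doublets was not tested.

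**Figure D2:**
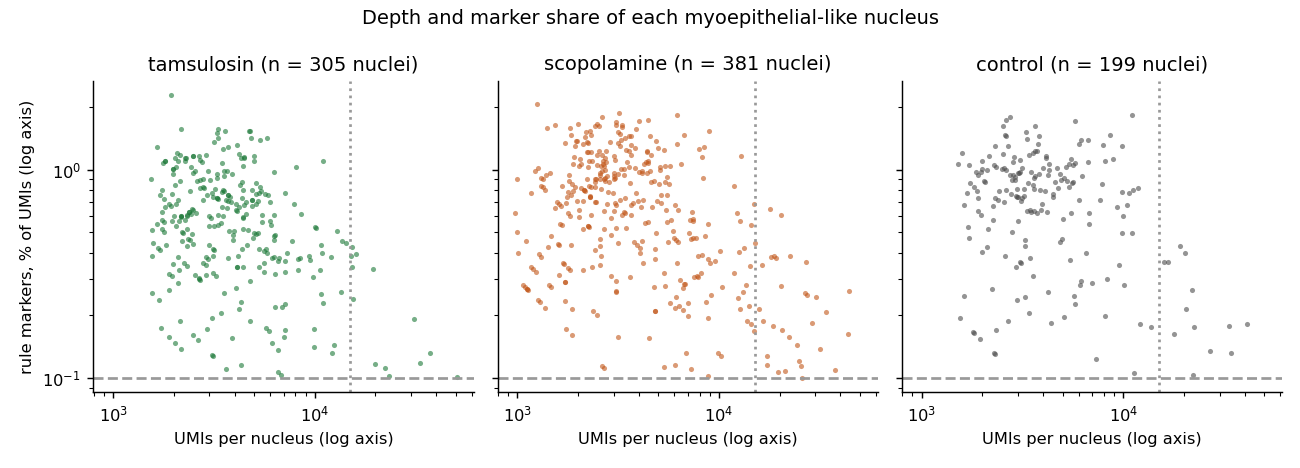
Each point is 1 myoepithelial-like nucleus of the tamsulosin, scopolamine or control library, with its UMIs on the horizontal log axis and the share of its UMIs from the 9 rule genes in percent on the vertical log axis. The dashed line is the 0.1% limit of the rule, and nuclei right of the dotted line (15000 UMIs) number 13 in tamsulosin, 32 in scopolamine and 13 in control.

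Myoepithelial-like nuclei took the largest share in the scopolamine library. In the tamsulosin library they made up 2.54% (2.26 to 2.83), in the scopolamine library 3.81% (3.44 to 4.201) and in the control library 2.77% (2.40 to 3.17). The scopolamine interval lay above the other two, which overlapped each other. A share depends on the other nuclei of its library, which were shallower in the scopolamine library, and a sort would bear on it; the part of either was not tested. With every nucleus thinned to 1000 UMIs before the rule was applied, the shares were 1.09% in tamsulosin, 1.87% in scopolamine and 0.904% in control nuclei. The scopolamine share was again the highest, and the intervals of tamsulosin and control overlapped. With 1 library per group, this order describes 3 libraries and not the treatments.

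Beyond the genes of the rule, the profile of the members held channels, matrix proteins and growth factors. Of 3227 genes with a mean of at least 50 CPM over the libraries, 287 (8.89%) were at least 2-fold above all other nuclei in every library; since the rule chose the nuclei by this contrast, the count is a description. The 25 highest by their smallest difference are led by Cacnb4, a voltage-gated calcium channel subunit (chr2:52428320-52676831), with 614 CPM in tamsulosin, 788 CPM in scopolamine and 1000 CPM in control nuclei, against 12.9 CPM in tamsulosin, 24.9 CPM in scopolamine and 26.7 CPM in control nuclei outside the members. Ryr3, a calcium release channel of internal stores, had 239.6 CPM in tamsulosin, 292 CPM in scopolamine and 354 CPM in control nuclei. Prkg1, the kinase activated by cyclic GMP that relaxes smooth muscle, had 2761 CPM in tamsulosin, 2524 CPM in scopolamine and 4141 CPM in control nuclei, against 120.4 CPM in tamsulosin, 183 CPM in scopolamine and 148 CPM in control nuclei outside. The long non-coding RNA Carmn, known from smooth muscle, had 131 CPM in tamsulosin, 163 CPM in scopolamine and 233 CPM in control nuclei. Synpo2 and Pgm5, both of actin attachment sites, also belonged to the 25.

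Several of the 25 encode proteins that leave the cell. Hgf, the growth factor that binds the receptor Met, had 569 CPM in tamsulosin, 512 CPM in scopolamine and 513 CPM in control nuclei, against 11.8 CPM in tamsulosin, 25.8 CPM in scopolamine and 16.1 CPM in control nuclei outside the members. Kitl, the ligand of the receptor Kit, had 793 CPM in tamsulosin, 715 CPM in scopolamine and 806 CPM in control nuclei, against 32.9 CPM in tamsulosin, 53.8 CPM in scopolamine and 39.5 CPM in control nuclei outside. Fibroblast-type nuclei had Kitl at 88.2 CPM in tamsulosin, 90.8 CPM in scopolamine and 123 CPM in control nuclei. The matrix genes Postn, Col4a6, Matn2, Adamtsl1 and Adamts18 and the guidance cue Sema5a were part of the same set. Postn (periostin) had 411 CPM in tamsulosin, 404 CPM in scopolamine and 371 CPM in control nuclei. Cdh3, the P-cadherin of basal epithelia, had 131 CPM in tamsulosin, 133 CPM in scopolamine and 118 CPM in control nuclei, against 1.97 CPM in tamsulosin, 5.40 CPM in scopolamine and 2.39 CPM in control nuclei outside. The remaining names were mostly genes best known from neurons, such as Nlgn1, Gria4, Dlgap1, Kirrel3 and Ctnnd2, and the channels Kcnq5, Kcnh1 and Trpm3, with Rgs6, a regulator of G protein signalling, and Nkain3.

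**Figure D3:**
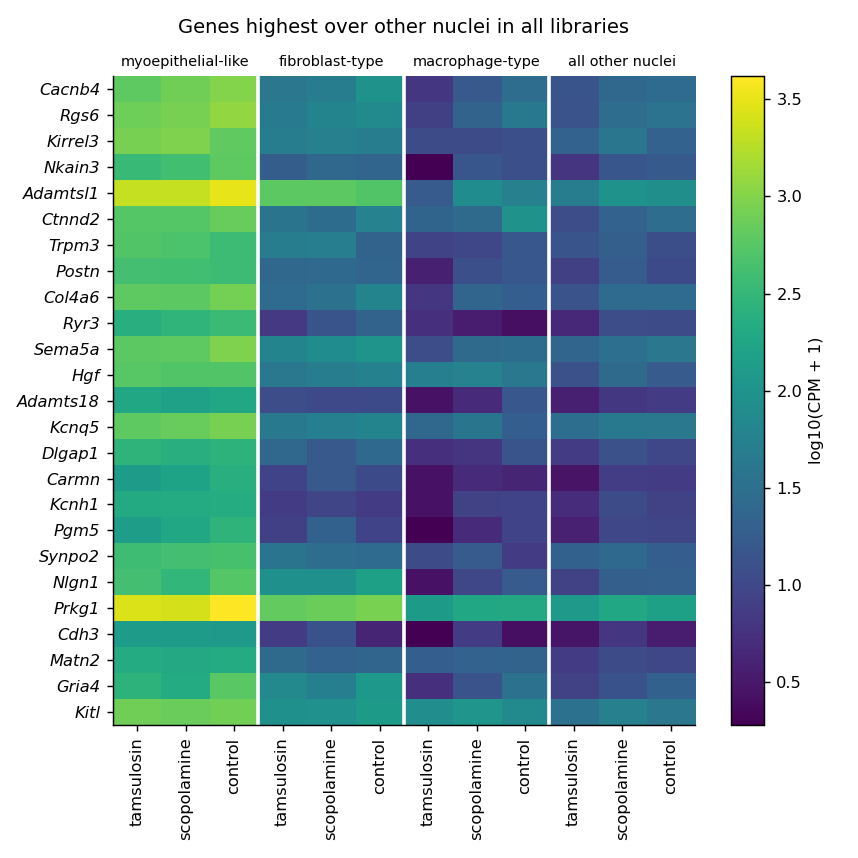
Colour gives log10(CPM + 1) for the 25 genes with the highest smallest log2 ratio of members to other nuclei, in myoepithelial-like, fibroblast-type, macrophage-type and all other nuclei of the tamsulosin, scopolamine and control libraries. All 25 are brightest in the myoepithelial-like columns of every library, and Prkg1 and Adamtsl1 are also visible in fibroblast-type nuclei.

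The contractile apparatus was well represented in the members. Of its 26 listed genes, 19 passed the level filter, and 14 of these were at least 2-fold above other nuclei in all libraries, against 8.89% of all genes tested. Counts of this contrast, here and below, are a description, since the rule chose the nuclei by smooth muscle and basal genes. The list summed to 6012 CPM in tamsulosin, 6796 CPM in scopolamine and 8774 CPM in control nuclei, against 1657 CPM in tamsulosin, 2009 CPM in scopolamine and 2355 CPM in control nuclei outside the members. Counted without the 10 secretory RNAs in the totals, a scaling chosen after seeing the data, its levels were 8782 CPM in tamsulosin, 8695 CPM in scopolamine and 9448 CPM in control nuclei. Mylk, the kinase that switches on smooth muscle myosin, had 551 CPM in tamsulosin, 558 CPM in scopolamine and 702 CPM in control nuclei. Lmod1, an actin nucleator of smooth muscle, had 72.5 CPM in tamsulosin, 62.7 CPM in scopolamine and 117 CPM in control nuclei, against 1.47 CPM in tamsulosin, 4.30 CPM in scopolamine and 2.98 CPM in control nuclei outside. The tropomyosin gene Tpm2 had 73.8 CPM in tamsulosin, 79.3 CPM in scopolamine and 127 CPM in control nuclei, and the myosin light chain gene Myl9 had 57.0 CPM in tamsulosin, 57.3 CPM in scopolamine and 71.6 CPM in control nuclei. Dmd, the gene of dystrophin, had 1302 CPM in tamsulosin, 1516 CPM in scopolamine and 2139 CPM in control nuclei. Des, the desmin of muscle cells, had at most 1 UMI in a library.

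The share of members with an Acta2 UMI was 46.6% in tamsulosin, 60.4% in scopolamine and 68.3% in control nuclei. At 1000 UMIs per nucleus it was 17.0% in tamsulosin, 26.7% in scopolamine and 33.2% in control nuclei, in the same order as the CPM values. In macrophage-type nuclei it was 1.49% in tamsulosin, 2.73% in scopolamine and 2.34% in control nuclei. For Myh11 the thinned share was 48.2% in tamsulosin, 58.2% in scopolamine and 61.8% in control nuclei, again lowest in the tamsulosin library. These shares are lower where the secretory RNA share is higher (31.5% in tamsulosin, 21.8% in scopolamine and 7.13% in control nuclei), and its part in them was not tested.

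Serum response factor drives smooth muscle genes through a short promoter element, the CArG box. Of 26 contractile genes, 23 matched the RefSeq promoter table (GRCm38.p6, 250 bases before to 50 after a start), with 29 promoters. A CArG box on either strand stood in 4 of these 29 (13.8%), those of Dmd, Myl6, Myl9 and Vcl, against 1.63% of all 32851 promoters. None of the 5 promoters of the rule genes in the table held it, which says only that these letters are not in that window. The promoters of Myl9 (chr2:156775214-156775513, plus strand) and Dmd (chrX:82948620-82948919, plus strand) are shown, as both genes passed the level filter, with the CArG box in capitals.
Myl9: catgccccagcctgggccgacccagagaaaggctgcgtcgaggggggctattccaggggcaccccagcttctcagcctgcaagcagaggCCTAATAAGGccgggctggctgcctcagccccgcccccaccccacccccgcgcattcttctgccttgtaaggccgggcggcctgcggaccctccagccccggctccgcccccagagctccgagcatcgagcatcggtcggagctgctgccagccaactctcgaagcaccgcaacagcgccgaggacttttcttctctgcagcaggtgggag
Dmd: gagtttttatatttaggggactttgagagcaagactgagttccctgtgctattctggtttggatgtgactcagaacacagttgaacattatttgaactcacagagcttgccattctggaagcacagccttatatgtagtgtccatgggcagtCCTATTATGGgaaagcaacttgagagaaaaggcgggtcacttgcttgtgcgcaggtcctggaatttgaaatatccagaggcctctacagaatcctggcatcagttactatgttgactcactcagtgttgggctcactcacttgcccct

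Genes of the basal epithelial state and of the basement membrane formed the second group. Of 16 basal epithelial genes, 10 passed the filter and 6 were at least 2-fold above other nuclei in all libraries. Col17a1, the collagen of hemidesmosomes, had 57.0 CPM in tamsulosin, 61.3 CPM in scopolamine and 52.8 CPM in control nuclei, against 1.75 CPM in tamsulosin, 3.46 CPM in scopolamine and 2.45 CPM in control nuclei outside the members. Dsc3, a desmosomal cadherin, had 43.4 CPM in tamsulosin, 46.4 CPM in scopolamine and 68.0 CPM in control nuclei, and the Notch ligand gene Jag2 had 62.8 CPM in tamsulosin, 64.5 CPM in scopolamine and 78.7 CPM in control nuclei. Krt15 and Krt17 were near 0, and Dsg3 had no UMI in any library, which with 3 counts as the floor allows at most 1.94 CPM in tamsulosin, 1.35 CPM in scopolamine and 2.68 CPM in control nuclei. Of 27 basement membrane genes, 15 passed the filter and 12 stood at least 2-fold above other nuclei throughout.

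Laminin chains of epithelial basement membranes were among them. Lama3 had 164 CPM in tamsulosin, 179 CPM in scopolamine and 220.1 CPM in control nuclei, against 4.06 CPM in tamsulosin, 11.6 CPM in scopolamine and 7.27 CPM in control nuclei outside the members. Lamb3, a partner chain of Lama3, had 76.4 CPM in tamsulosin, 63.6 CPM in scopolamine and 79.6 CPM in control nuclei. Lama1, of another laminin, had 119.8 CPM in tamsulosin, 105 CPM in scopolamine and 147 CPM in control nuclei. The type IV collagen chains were high as pairs of neighbours on the chromosome. Col4a5 had 441 CPM in tamsulosin, 391 CPM in scopolamine and 483 CPM in control nuclei and Col4a6 622 CPM in tamsulosin, 604 CPM in scopolamine and 822 CPM in control nuclei, while Col4a1 had 194 CPM in tamsulosin, 163 CPM in scopolamine and 157 CPM in control nuclei and Col4a2 120.5 CPM in tamsulosin, 113 CPM in scopolamine and 128 CPM in control nuclei. The linkers Nid1 and Nid2, which join laminin and collagen networks, had at most 22.4 CPM. The basement membrane list summed to 2650.1 CPM in tamsulosin, 2666 CPM in scopolamine and 3284 CPM in control nuclei, against 501 CPM in tamsulosin, 559 CPM in scopolamine and 676 CPM in control nuclei outside the members.

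The receptors that could move these cells were few. Chrm3, the M3 muscarinic receptor that scopolamine blocks, had 4236 CPM in tamsulosin, 5539 CPM in scopolamine and 5973 CPM in control nuclei, against 2428 CPM in tamsulosin, 3042 CPM in scopolamine and 3678 CPM in control nuclei outside the members and 841 CPM in tamsulosin, 1484 CPM in scopolamine and 2652 CPM in control nuclei of the macrophage type. A Chrm3 UMI was present in at least 99.0% of members in each library. It was also present in 61.0% in tamsulosin, 82.3% in scopolamine and 100% in control nuclei of the macrophage type. Its presence in a nucleus thus does not separate cell types here. Its level in the members was above that of all other nuclei, but by less than 2-fold in each library. The part of background RNA in it was not tested. Tacr1, the substance P receptor, stood far above the other nuclei, with 106 CPM in tamsulosin, 87.9 CPM in scopolamine and 124 CPM in control nuclei, against 2.46 CPM in tamsulosin, 3.67 CPM in scopolamine and 3.32 CPM in control nuclei outside. The share of members with a UMI was 30.5% in tamsulosin, 29.7% in scopolamine and 38.7% in control nuclei, and it was at most 1.17% in macrophage-type nuclei. Ednra, the endothelin A receptor, had 38.2 CPM in tamsulosin, 32.5 CPM in scopolamine and 39.4 CPM in control nuclei, against 1.147 CPM in tamsulosin, 3.46 CPM in scopolamine and 1.68 CPM in control nuclei outside. Of the 24 receptors, 4 passed the filter, and Tacr1 alone of these was at least 2-fold above other nuclei in all libraries.

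Of the alpha-1 adrenergic receptors that tamsulosin blocks, only Adra1a (chr14:66635251-66771168) gave UMIs in the members; Adra1b and Adra1d had none. Adra1a stood at 47.3 CPM in tamsulosin, 114 CPM in scopolamine and 153 CPM in control nuclei. Macrophage-type nuclei had 36.1 CPM in tamsulosin, 86.5 CPM in scopolamine and 185 CPM in control nuclei, and all other nuclei had 112 CPM in tamsulosin, 151 CPM in scopolamine and 302 CPM in control nuclei. The members were thus above the macrophage type in tamsulosin and scopolamine, below it in control, and below all other nuclei throughout. The share of members with an Adra1a UMI was 12.8% in tamsulosin, 24.4% in scopolamine and 38.7% in control nuclei, against 8.93% in tamsulosin, 16.4% in scopolamine and 39.8% in control nuclei of the macrophage type. Expression by the members and background RNA could not be told apart for Adra1a. The beta receptor gene Adrb1 had 14 to 35 UMIs per library.

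Downstream of the receptors, 18 of 31 calcium and contraction signalling genes passed the filter, and 6 were at least 2-fold above other nuclei in all libraries. Plcb1, a phospholipase of the Gq pathway, had 534 CPM in tamsulosin, 633 CPM in scopolamine and 702 CPM in control nuclei. The calcium channel gene Cacna1d had 162 CPM in tamsulosin, 169.5 CPM in scopolamine and 157 CPM in control nuclei, against 15.4 CPM in tamsulosin, 26.4 CPM in scopolamine and 27.6 CPM in control nuclei outside the members, and the store receptor gene Itpr1 had 119 CPM in tamsulosin, 163 CPM in scopolamine and 152 CPM in control nuclei. Pde5a, which breaks down cyclic GMP, had 55.7 CPM in tamsulosin, 57.7 CPM in scopolamine and 123 CPM in control nuclei, against 3.004 CPM in tamsulosin, 5.97 CPM in scopolamine and 5.06 CPM in control nuclei outside. Rock1, Rock2 and Rhoa, of the pathway that holds smooth muscle contracted, stood within 2-fold of the other nuclei in each library. Kcnmb1, the muscle-type partner of Kcnma1, had 5 to 11 UMIs per library.

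Growth and guidance signals were a further group. Of 29 genes, 18 passed the filter and 9 were at least 2-fold above other nuclei in all libraries. Nrg1, a ligand of ErbB receptors (chr8:31814551-32884029), had 826 CPM in tamsulosin, 607 CPM in scopolamine and 926 CPM in control nuclei, against 54.6 CPM in tamsulosin, 49.4 CPM in scopolamine and 51.8 CPM in control nuclei outside the members. Its share of members after thinning was 53.8% in tamsulosin, 43.1% in scopolamine and 46.7% in control nuclei, against an unthinned 82.3% in tamsulosin, 74.5% in scopolamine and 74.9% in control nuclei. Ntf3, the neurotrophin that binds Ntrk3, was itself present at 64.8 CPM in tamsulosin, 61.8 CPM in scopolamine and 57.2 CPM in control nuclei, and the related receptor gene Ntrk2 at 119 CPM in tamsulosin, 86.1 CPM in scopolamine and 69.8 CPM in control nuclei. Tgfbr3, a co-receptor of TGF-beta, had 584 CPM in tamsulosin, 519.8 CPM in scopolamine and 475 CPM in control nuclei, against 64.3 CPM in tamsulosin, 60.5 CPM in scopolamine and 48.2 CPM in control nuclei outside. Fgfr1 had 179 CPM in tamsulosin, 178 CPM in scopolamine and 229 CPM in control nuclei, against 17.3 CPM in tamsulosin, 30.2 CPM in scopolamine and 38.3 CPM in control nuclei outside. The Fgf receptor Fgfr2, which other epithelial nuclei carry too, had 383 CPM in tamsulosin, 378 CPM in scopolamine and 270.1 CPM in control nuclei. Ligand and receptor RNA of the neurotrophin-3 pair were both counted in the members, in every library. Because Ntrk3 is a gene of the rule, its presence helped to choose the members and is a description.

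Between the scopolamine and the control library, few genes of the members were past 2-fold relative to the median gene. Of 3227 genes compared, 53 (1.64%) lay 2-fold or more above control in scopolamine nuclei and 36 (1.12%) as far below it, on log2(CPM + 5) less the median of all genes, which was -0.25. Without this subtraction the counts were 31 higher and 72 lower, and with members thinned 140 and 89. Of the 53 higher genes, 41 were also at least 2-fold higher in all other nuclei, and 12 were higher there by less than 2-fold. Over all genes compared, 3.781% were at least 2-fold higher in the other nuclei. Of the 53, 8 were secretory RNAs of the list. All 10 genes of that list were compared, and 1 of them was past 2-fold lower. Of the 36 lower genes, 21 were also at least 2-fold lower in all other nuclei, against 0.93% of all genes, while in 8 the other nuclei were at or above their median. Background RNA of the library and change in the members themselves could not be told apart for the genes that differed in both.

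Among all genes 1.64% were past 2-fold higher and 1.12% lower, so few or no genes past it in short lists says little about them. None of the 15 basement membrane, 10 basal epithelial, 12 transcription factor, 18 growth signal and 4 receptor genes tested was past 2-fold in either direction, with list medians of 0.01, 0.20, 0.26, 0.10 and -0.20 on the log2 scale. Frem1, a basement membrane gene described below, was not in the basement membrane list and was past 2-fold lower, at -1.14. Of 19 contractile genes 1 was past 2-fold, higher, and the list median was -0.21, or 0.10 after thinning. Of 18 calcium and contraction signalling genes 1 was past 2-fold, also higher, with a list median of 0.15. The contractile, basal, basement membrane, calcium, growth and receptor medians changed sign in at least 1 other setting, so no direction is given for these lists.

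The contractile gene past 2-fold was Pdlim3 (chr8:45885461-45919548), which encodes a PDZ and LIM protein of actin filaments. It had 285 CPM in tamsulosin, 297 CPM in scopolamine and 113 CPM in control nuclei. The scopolamine to control ratio of CPM was 2.64 (95% interval 2.18 to 3.22), a log2 difference of 1.61 relative to the median, and other nuclei differed by 1.96. The calcium gene was Cacna1c, the L-type channel subunit of smooth muscle, with 163 CPM in tamsulosin, 264 CPM in scopolamine and 134 CPM in control nuclei. Its scopolamine to control ratio was 1.97 (95% interval 1.64 to 2.37), and its level in other nuclei was 9.32 CPM in tamsulosin, 20.1 CPM in scopolamine and 9.41 CPM in control nuclei. The tamsulosin library stood between the other two for Cacna1c and close to scopolamine for Pdlim3. Mid1, a ubiquitin ligase bound to microtubules, had 195 CPM in tamsulosin, 238 CPM in scopolamine and 102 CPM in control nuclei, with a ratio of 2.33 (95% interval 1.90 to 2.88) between scopolamine and control nuclei.

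Of the other named higher genes, 3 were nearly absent outside the members. At those low levels they were higher in scopolamine than in control nuclei there too. Their relative log2 differences outside were 0.84 for Mir205hg, 0.68 for Galnt14 and 0.64 for Ptprz1, under 2-fold. Mir205hg, the host gene of the epithelial microRNA miR-205, had 133 CPM in scopolamine and 69.8 CPM in control nuclei, and at most 5.31 CPM outside the members. Galnt14, an enzyme of O-glycosylation, had 91.5 CPM in scopolamine and 45.6 CPM in control nuclei, and Ptprz1, a receptor phosphatase, had 79.3 CPM in scopolamine and 43.8 CPM in control nuclei; neither exceeded 3.55 CPM outside the members. Il34, a ligand of the macrophage receptor Csf1r, had 92.0 CPM in scopolamine and 49.2 CPM in control nuclei, against 118 CPM in tamsulosin, 81.2 CPM in scopolamine and 51.0 CPM in control nuclei outside the members. Igfbp5, which binds insulin-like growth factors, was at the threshold, with 212 CPM in scopolamine and 124 CPM in control nuclei. Trpm6, Pid1, Fut9 and Slc15a2 complete the 12, with relative log2 differences of 1.06, 1.03, 1.00 and 0.94, the last 2 under the 2-fold line. Thinned to 1000 UMIs, Pid1 (0.38) and Il34 (0.85) were no longer past it. Without members above 15000 UMIs, Pid1 (0.54) and Trpm6 (0.85) were not.

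A set of genes at low levels outside the members was lower in the scopolamine members. Ntm, a neuronal adhesion molecule (chr9:28994750-29963141), had 47.3 CPM in tamsulosin, 33.8 CPM in scopolamine and 138 CPM in control nuclei, a scopolamine to control ratio of 0.245 (95% interval 0.184 to 0.326). Other nuclei had 21.5 CPM in tamsulosin, 11.4 CPM in scopolamine and 10.8 CPM in control nuclei. The share of members with an Ntm UMI was 12.5% in tamsulosin, 10.5% in scopolamine and 35.2% in control nuclei, and 5.25% in tamsulosin, 3.70% in scopolamine and 13.6% in control nuclei at 1000 UMIs. The tamsulosin and scopolamine values lay close together and far below control.

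Lin7a, a scaffold protein of cell junctions, had 115 CPM in tamsulosin, 109.5 CPM in scopolamine and 314 CPM in control nuclei. Frem1, an extracellular matrix protein of epithelial basement membranes, had 44.7 CPM in tamsulosin, 40.6 CPM in scopolamine and 114 CPM in control nuclei. Spaar, a short polypeptide of lysosomes that tunes mTORC1, had 37.6 CPM in tamsulosin, 40.1 CPM in scopolamine and 113 CPM in control nuclei. All 3 were sparse outside the members, with at most 8.42 CPM. The glutamate receptor gene Gria4 had 272 CPM in tamsulosin, 213 CPM in scopolamine and 576 CPM in control nuclei, and Cdh2, N-cadherin, had 73.2 CPM in tamsulosin, 56.4 CPM in scopolamine and 165 CPM in control nuclei. Outside the members Frem1 had 0.819 CPM in tamsulosin, 1.82 CPM in scopolamine and 3.67 CPM in control nuclei. Gria4 had 7.77 CPM in tamsulosin, 12.3 CPM in scopolamine and 19.98 CPM in control nuclei there, and Cdh2 had 1.22 CPM in tamsulosin, 2.55 CPM in scopolamine and 5.16 CPM in control nuclei. In CPM these 3, and Lin7a, were lower in scopolamine than in control nuclei there too, at low levels. Relative to the median gene the log2 differences there were 0.02 for Frem1, -0.16 for Gria4, -0.06 for Cdh2 and 0.18 for Lin7a. In the members the scopolamine to control ratio of Lin7a, Frem1, Spaar, Gria4 and Cdh2 was between 0.341 and 0.370. After thinning, Lin7a (-0.52), Frem1 (-0.69), Gria4 (-0.71), Cdh2 (-0.95) and Spaar (-0.98) stayed lower but were no longer past 2-fold, while Ntm was at -1.74.

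The lowest 2 of all named genes were Lars2 and Camk1d. Lars2, the mitochondrial leucyl-tRNA synthetase, had 216 CPM in tamsulosin, 145 CPM in scopolamine and 762 CPM in control nuclei, and outside the members 219.7 CPM in tamsulosin, 214 CPM in scopolamine and 589.7 CPM in control nuclei. This gene holds sequence alike to mitochondrial ribosomal RNA, so its counts are uncertain. The mitochondrial share of member UMIs was 1.07% in tamsulosin, 0.578% in scopolamine and 1.13% in control nuclei. Outside the members it was 0.898% in tamsulosin, 0.325% in scopolamine and 0.208% in control nuclei. Lars2 was highest in control in both sets, while outside the members this share was lowest there, and its part was not tested. Camk1d, a calcium-dependent kinase, had 277 CPM in tamsulosin, 260.1 CPM in scopolamine and 1166 CPM in control nuclei, and Cdk8, of the Mediator complex, had 177 CPM in tamsulosin, 243 CPM in scopolamine and 685 CPM in control nuclei. Other nuclei differed the same way, at -1.20 for Camk1d and -0.70 for Cdk8 on the relative log2 scale. Macrophage-type nuclei held more Camk1d than the members, with 1151 CPM in tamsulosin, 1225 CPM in scopolamine and 1708 CPM in control nuclei. Dmbt1, a secreted mucosal protein, had 102 CPM in scopolamine and 271 CPM in control nuclei, with 132 CPM in scopolamine and 238 CPM in control nuclei outside the members.

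**Figure D4:**
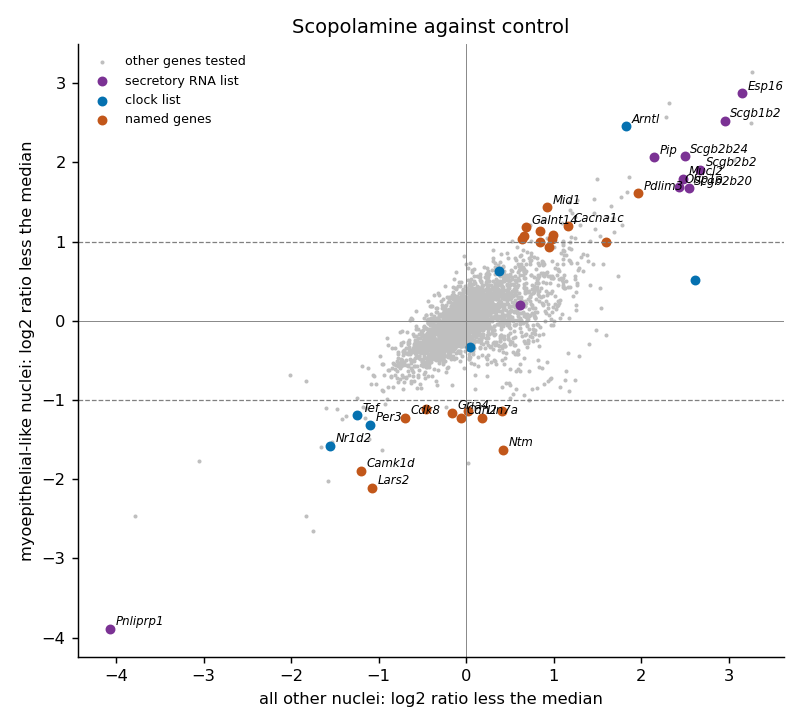
Log2 ratio of scopolamine to control less the median, in all other nuclei (horizontal axis) and in myoepithelial-like nuclei (vertical axis), 1 point for each of 3227 genes; dashed lines mark 2-fold. Secretory RNAs and the clock genes Arntl, Nr1d2, Per3 and Tef lie along the diagonal, while Ntm and Lin7a are past 2-fold lower in the members and near or above the median in the other nuclei.

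Genes of the circadian clock differed between the scopolamine and control libraries in both directions. The clock runs on the activators Arntl, Clock and Npas2, which drive the Per, Cry and Nr1d repressors and the output factors Dbp, Tef and Hlf, so activators and outputs peak at different hours. The hour at which glands were taken is not given in the sources used here. Of 19 clock genes 7 passed the filter, and 1 was higher and 3 were lower past 2-fold in scopolamine nuclei, against 1.64% and 1.12% of all genes, with a list median of -0.33, or 0.03 after thinning. Arntl (chr7:113207465-113314126) had 64.8 CPM in tamsulosin, 117 CPM in scopolamine and 21.5 CPM in control nuclei. Its scopolamine to control ratio was 5.46 (95% interval 3.59 to 8.68), and other nuclei had 75.0 CPM in tamsulosin, 123 CPM in scopolamine and 41.7 CPM in control nuclei.

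Nr1d2, Tef and Per3 were the 3 lower genes. With the highest doublet scores removed, Tef (-0.96) stayed lower but was no longer past 2-fold. Nr1d2, a repressor of Arntl (chr14:18204054-18239127), had 74.5 CPM in tamsulosin, 67.2 CPM in scopolamine and 251 CPM in control nuclei, a scopolamine to control ratio of 0.267 (95% interval 0.218 to 0.327). Tef had 66.1 CPM in tamsulosin, 78.0 CPM in scopolamine and 221 CPM in control nuclei, and Per3 had 31.7 CPM in tamsulosin, 30.7 CPM in scopolamine and 100.2 CPM in control nuclei. Dbp, too low to pass the filter, gave 2 UMIs in tamsulosin, 3 in scopolamine and 49 in control members, and its scopolamine to control ratio was 0.0309 (95% interval 0.00615 to 0.0956). Nr1d1 gave 8, 6 and 26 UMIs, and Ciart 1, 0 and 9, in the same order of libraries. The other clock repressors and outputs named above did not share one order. Cry2 had 22.0 CPM in tamsulosin, 23.0 CPM in scopolamine and 53.7 CPM in control nuclei, Per2 had 46.6 CPM in tamsulosin, 26.6 CPM in scopolamine and 41.1 CPM in control nuclei and Hlf had 35.6 CPM in tamsulosin, 19.8 CPM in scopolamine and 29.5 CPM in control nuclei, while Per1 and Cry1 had 12 to 45 UMIs per library. In Nr1d2, Tef, Per3, Dbp and Nr1d1 the tamsulosin and scopolamine libraries were both far below control. In the other nuclei these 5 genes were likewise highest in control, with Nr1d2 at 66.8 CPM in tamsulosin, 62.7 CPM in scopolamine and 251 CPM in control nuclei.

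Npas2, which can stand in for Clock, was the exception (chr1:39193731-39363236). The members had 144 CPM in tamsulosin, 178 CPM in scopolamine and 147 CPM in control nuclei, and the other nuclei 47.3 CPM in tamsulosin, 46.9 CPM in scopolamine and 5.96 CPM in control nuclei. The scopolamine to control difference was therefore 0.52 in the members and 2.61 in other nuclei on the relative log2 scale, and 1.28 in members thinned to 1000 UMIs. Fibroblast-type nuclei, with 159.9 CPM in tamsulosin, 182 CPM in scopolamine and 17.6 CPM in control nuclei, followed the other nuclei and not the members. At 1000 UMIs the share of members with an Npas2 UMI was 15.1% in tamsulosin, 21.7% in scopolamine and 12.1% in control nuclei, and 3.57% in tamsulosin, 4.10% in scopolamine and 1.17% in control nuclei of the macrophage type had one unthinned. In the control library the members were thus far above the fibroblast-type, macrophage-type and other nuclei in Npas2. Rora, an activator of Arntl, had 688 CPM in tamsulosin, 711 CPM in scopolamine and 1067 CPM in control nuclei, against 218 CPM in tamsulosin, 267 CPM in scopolamine and 335 CPM in control nuclei outside the members, and Clock had 189.8 CPM in tamsulosin, 251 CPM in scopolamine and 191 CPM in control nuclei.

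**Figure D5:**
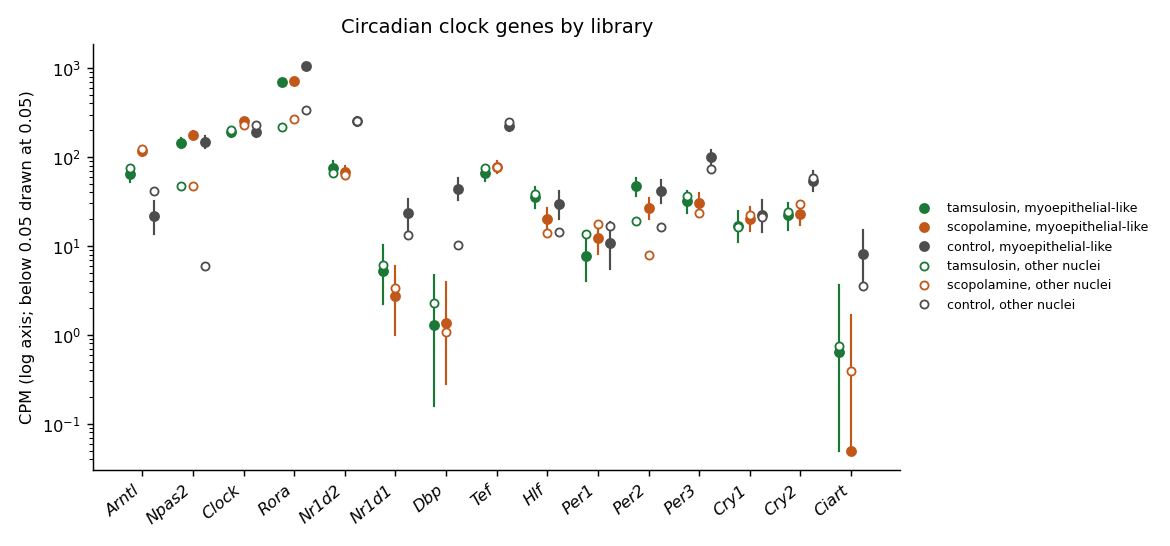
CPM on a log axis of 15 clock genes in myoepithelial-like nuclei (filled points with 95% Poisson intervals) and all other nuclei (open points) of the tamsulosin, scopolamine and control libraries. Nr1d2, Dbp, Tef and Per3 are highest in control, Arntl is lowest there, and the open control point of Npas2 lies far below all its other points.

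Clock activators bind the E-box CACGTG. Searched on both strands, it stood in 6 of 21 promoters (28.6%) of the 16 clock genes in the RefSeq promoter table (GRCm38.p6), those of Bhlhe41, Ciart, Cry1, Per1 and 2 promoters of Tef, against 7.15% of all promoters. A promoter of Tef (chr15:81802423-81802722, plus strand) is shown as that of a clock output gene whose level differed, with the E-box in capitals. The match is a description and not a bound site.
Tef: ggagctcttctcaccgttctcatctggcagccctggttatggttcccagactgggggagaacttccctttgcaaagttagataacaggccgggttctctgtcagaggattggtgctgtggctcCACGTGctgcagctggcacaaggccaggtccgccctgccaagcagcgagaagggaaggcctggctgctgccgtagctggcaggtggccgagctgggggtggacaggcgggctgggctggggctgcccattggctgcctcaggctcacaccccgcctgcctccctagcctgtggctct

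Between the tamsulosin and the scopolamine library, 80 genes (2.48%) of the tamsulosin members lay 2-fold or more above scopolamine and 8 (0.248%) as far below it, relative to a median of -0.32. Without the subtraction the counts were 42 higher and 49 lower. Of the 80 higher genes, 39 encode ribosomal proteins, of which 53 were among the 3227 genes compared, and 8 are mitochondrial transcripts. In all other nuclei 60 of the 80 were also at least 2-fold higher. Over all 3227 genes, 3.998% were that much higher in the other nuclei. None of the 8 lower genes was past 2-fold in the other nuclei, where only 0.062% of all genes were. With the highest doublet scores removed the counts were 154 higher and 120 lower, and with members thinned 49 were lower, so the excess of higher genes depends on these settings. This comparison uses the same scopolamine library as the one with control, so its values are not independent of it.

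Of the 12 genes named as highest, Scgb2b7 came first, with 431 CPM in tamsulosin, 24.3 CPM in scopolamine and 70.7 CPM in control nuclei, a tamsulosin to scopolamine ratio of 17.7 (95% interval 13.4 to 23.8). Macrophage-type nuclei had it at 276 CPM in tamsulosin, 42.6 CPM in scopolamine and 45.1 CPM in control nuclei. Background and expression by the members could not be told apart for it. Scgb2b7 lies in a family of near-identical secretoglobin genes, so reads may be split among copies. Scgb2a2, with 369 CPM in tamsulosin and 108 CPM in scopolamine nuclei, Scgb1b2 and the odorant-binding protein gene Obp1b belong to the same class. Tpt1, a growth-related protein of the translation apparatus, had 262 CPM in tamsulosin and 105 CPM in scopolamine nuclei, Fau had 159 CPM in tamsulosin and 74.4 CPM in scopolamine nuclei, and Rack1, a scaffold on the ribosome, had 80.3 CPM in tamsulosin and 39.2 CPM in scopolamine nuclei. For Tpt1, macrophage-type nuclei had 337 CPM in tamsulosin, 114 CPM in scopolamine and 54.7 CPM in control nuclei. The histone gene H3f3b was at the threshold, with 1.00, and Ssr1, H2-D1 and Lamp1 lay just under it. Thinned to 1000 UMIs, Ssr1 was at -0.01, H3f3b at 0.81 and Lamp1 at 1.47.

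Pdzrn4, a ubiquitin ligase gene used as a duct marker, was also among the named genes. It had 64.8 CPM in tamsulosin, 40.1 CPM in scopolamine and 92.1 CPM in control nuclei, against 4.70 CPM in tamsulosin, 13.5 CPM in scopolamine and 11.1 CPM in control nuclei outside the members and 2.71 CPM in tamsulosin, 1.25 CPM in scopolamine and 59.6 CPM in control nuclei of the macrophage type. Since the rule limits Pdzrn4 to under 0.1% with Sult5a1, its level in the members is a description. The relative log2 difference between tamsulosin and scopolamine nuclei was 0.95, under the 2-fold line.

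None of the 12 named lower genes was past 2-fold, though Lrrc28 was, at -1.14, with the highest doublet scores removed. The lowest was Tbcd, a tubulin-folding cofactor, with 26.6 CPM in tamsulosin and 62.2 CPM in scopolamine nuclei and a relative log2 difference of -0.77. Rbpj, the DNA-binding partner of Notch, had 75.1 CPM in tamsulosin and 159.6 CPM in scopolamine nuclei; thinned to 1000 UMIs its difference was 0.09, with the opposite sign, and with the highest doublet scores removed it was -0.96. Foxo3, a stress-responsive transcription factor, had 134 CPM in tamsulosin and 261 CPM in scopolamine nuclei, and Ppara, a receptor that controls fatty acid use, had 23.96 CPM in tamsulosin and 49.6 CPM in scopolamine nuclei. Ror1, a receptor of Wnt5a, had 111 CPM in tamsulosin and 204 CPM in scopolamine nuclei. The others (Lrrc28, Suclg2, Mta3, Slc25a12, Pou2f1, Inpp5a and Arfgef2) lay between -0.70 and -0.49.

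Among all genes 2.48% were past 2-fold higher and 0.248% lower, so a count of 0 in short lists says little about them. None of the contractile, basal epithelial, basement membrane, receptor, calcium, transcription factor, growth signal and clock genes tested was past 2-fold in either direction. The list medians were 0.17, 0.23, 0.36, 0.24, 0.04, -0.06, 0.33 and 0.10 on the relative log2 scale, in the same order. Those of the contractile, basal, receptor, calcium and clock lists changed sign in at least 1 other setting. Nrg1 had 826 CPM in tamsulosin and 607 CPM in scopolamine nuclei, a ratio of 1.36 (95% interval 1.26 to 1.47) and a relative difference of 0.76. Adra1a had 47.3 CPM in tamsulosin and 114 CPM in scopolamine nuclei, a relative difference of -0.86, which was -1.55 with the highest doublet scores removed, -1.26 with members thinned and -0.53 without members above 15000 UMIs. Arntl, with 64.8 CPM in tamsulosin and 117 CPM in scopolamine nuclei, and Nr1d2, with 74.5 CPM in tamsulosin and 67.2 CPM in scopolamine nuclei, differed by -0.49 and 0.46.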

How the data were processed

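Per the labels' protocols, nuclei of fresh lacrimal gland were captured with the 10x Genomics 3' V3 kit. Per the file headers and the submitters' processing notes, the authors deposited unnormalized UMI counts from Cell Ranger 5.0.0 with mm10 as genome; the annotation release and the counting of introns are not given in the sources used here. Total UMIs over deposited barcodes were 57969348 in tamsulosin, 35237256 in scopolamine and 33500727 in control. Of 12322, 10024 and 7253 barcodes in that order, the quality limits removed 302, 18 and 59.

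The members and gene lists were chosen with earlier results of these data known. UMIs of members were summed per library (1544119 in tamsulosin, 2218199 in scopolamine and 1117949 in control) and given as CPM with exact Poisson intervals, ratios with exact conditional binomial intervals and shares with exact Clopper-Pearson intervals. Genes with a mean of at least 50 CPM over the libraries were compared as log2(CPM + 5) less the median, and called past 2-fold; with 1 library per group no test was made. Fold changes on this scale understate those of low genes. Named genes are the 12 highest and 12 lowest with at least 30 UMIs in the higher library and a CPM there not below that of other nuclei, and the 25 highest over other nuclei; unnamed gene models, mitochondrial and ribosomal protein genes were left out. Comparison nuclei had at least 3 UMIs from at least 2 fibroblast, mural or macrophage markers, at 0.1% or more of their UMIs. They also had more UMIs of that list than of the other marker lists compared. Doublets were kept. Scrublet (scanpy 1.11.5, expected rate 0.06) called 5 nuclei in tamsulosin, 1 in scopolamine and 0 in control, so an alternative dropped the top-scoring 0.8% of nuclei for every 1000 in the library. Gene positions and promoters come from GENCODE M21 and RefSeq (GRCm38.p6), matched by gene ID (427 of 427) and symbol. The calculation was checked on simulated counts. Python 3.11.15, numpy 2.4.6, scipy 1.17.1 and pandas 2.3.3 were used. The depth limits low genes: with 3 counts as the floor, 0 UMIs allow up to 1.94 CPM in tamsulosin, 1.35 CPM in scopolamine and 2.68 CPM in control members.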

Additional observations from a re-analysis of the deposited data

Results flagged for a closer look

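Casp4, an inflammatory caspase, was lower in the scopolamine members and higher in the other scopolamine nuclei than in control. The members had 60.2 CPM in tamsulosin, 46.0 CPM in scopolamine and 116 CPM in control nuclei. All other nuclei had 6.90 CPM in tamsulosin, 9.004 CPM in scopolamine and 5.96 CPM in control nuclei. The scopolamine to control difference was -1.001 in the members and 0.72 in other nuclei on the relative log2 scale, and the CPM ratio in the members was 0.395 (95% interval 0.302 to 0.516, counting error only). With 1 library per group the difference between the 2 sets of nuclei was not tested. Casp4 was picked out after its values were seen.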

How the results depend on the processing

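No paired analysis was possible because each group has 1 library, and for the same reason no library could be left out. The scopolamine share of members was the highest of the 3 under every alternative run, though without Fhod3, Ntrk3 and Cnn1 in the rule its interval overlapped that of control; none of the 33 and 10 listed or named genes past 2-fold changed sign. Shares moved to 1.09% in tamsulosin, 1.87% in scopolamine and 0.904% in control nuclei with nuclei thinned to 1000 UMIs, and to 1.76%, 2.79% and 2.24% in that order without Fhod3, Ntrk3 and Cnn1 in the rule. They moved to 2.17% in tamsulosin and 3.35% in scopolamine with the highest doublet scores removed, which held 69 tamsulosin, 73 scopolamine and 25 control members, and to 6.48% in scopolamine with at least 1600 UMIs. Counts for scopolamine against control, higher and lower, were 140 and 89 with members thinned, 322 and 174 with no filter and 31 and 72 without the median subtracted; the higher count was 112 at a filter of 20 CPM and 93 with the 50 most abundant genes out of the totals. Counts for tamsulosin against scopolamine were 154 and 120 with doublet scores removed, 165 and 72 with no filter, 125 and 18 at 20 CPM, 124 and 13 with the 50 genes out, and 42 and 49 without the median; the lower count was 49 with members thinned and 2 at a pseudocount of 20 CPM. Leaving out members above 15000 UMIs, or the 10 secretory RNAs from the totals, both added after seeing the data, moved no count by over 1.5 times. Of 33 listed or named genes past 2-fold for scopolamine against control, 24 to 33 stayed past it, and of 10 for tamsulosin against scopolamine, 7 to 10.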

Other observations

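Few stress and inflammation genes passed the level filter in the members. NF-kappa-B and acute phase genes summed to 405 CPM in tamsulosin, 395 CPM in scopolamine and 428 CPM in control nuclei. Outside the members they were lower, at 268 CPM in tamsulosin, 324 CPM in scopolamine and 324 CPM in control nuclei. Of 16 NF-kappa-B and acute phase genes only Nfkb1 passed the level filter. Lcn2, the iron-binding protein lipocalin 2, stood below it, with 70.6 CPM in tamsulosin, 36.5 CPM in scopolamine and 13.4 CPM in control nuclei and 15.9 CPM in tamsulosin, 4.21 CPM in scopolamine and 0.466 CPM in control nuclei outside the members. Its scopolamine to control ratio was 2.72 (95% interval 1.56 to 5.09), and its tamsulosin to scopolamine ratio 1.93 (95% interval 1.44 to 2.61). Macrophage-type nuclei had 9.93 CPM in tamsulosin, 1.25 CPM in scopolamine and 0 CPM in control nuclei. The chemokine gene Cxcl1 gave 22 UMIs in tamsulosin, 8 in scopolamine and 0 in control members, and Ccl2, Saa3 and Il6 gave none.

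None of the 10 immediate early genes passed the filter. They summed to 53.8 CPM in tamsulosin, 54.1 CPM in scopolamine and 103 CPM in control nuclei, and Egr1 gave 10, 7 and 25 UMIs in the libraries in that order. Of 12 cell cycle and p53 genes only Mdm2 passed; Mki67 gave at most 12 UMIs in a library and Top2a at most 17. Of 19 genes of the endoplasmic reticulum and heat shock responses 4 passed and none was past 2-fold in either comparison. Among all genes at most 2.48% were past it in either direction, so this says little about 4 genes. Together the 19 genes summed to 964 CPM in tamsulosin, 916 CPM in scopolamine and 1033 CPM in control nuclei. Outside the members they summed to 1138 CPM in tamsulosin, 1095 CPM in scopolamine and 1434.5 CPM in control nuclei. Herpud1, induced by unfolded protein, had 88.7 CPM in tamsulosin, 82.5 CPM in scopolamine and 162 CPM in control nuclei.

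None of the 12 transcription factors tested was at least 2-fold above other nuclei in all libraries, against 8.89% of all genes tested. In so short a list this says little about transcription factors, and the rule gene Trp63 was not among the 12. Pax6 had 282 CPM in tamsulosin, 373 CPM in scopolamine and 515 CPM in control nuclei, against 359 CPM in tamsulosin, 326 CPM in scopolamine and 589.6 CPM in control nuclei outside, and Nfib had 1397 CPM in tamsulosin, 1504 CPM in scopolamine and 1974 CPM in control nuclei, against 923 CPM in tamsulosin, 854 CPM in scopolamine and 1262 CPM in control nuclei outside. Snai2, known from basal and mesenchymal cells, was too low to pass, with 24.6 CPM in tamsulosin, 25.7 CPM in scopolamine and 32.2 CPM in control nuclei, yet had at most 1.85 CPM outside. Sox10 had 49.2 CPM in tamsulosin, 39.2 CPM in scopolamine and 21.5 CPM in control nuclei, against 18.2 CPM in tamsulosin, 7.06 CPM in scopolamine and 4.10 CPM in control nuclei outside. The smooth muscle coactivator gene Myocd had no UMI in any member, while its relatives Mrtfa and Mrtfb had at least 132 CPM in each library.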
